A study of Sus scrofa with 31 samples.

Results

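The genes described here encode the core machinery of calcium cycling in the heart muscle cell: CACNA1C, RYR2, CASQ2, ATP2A2, PLN and SLC8A1. They were chosen by name and matched to the gene names in the deposited tables, which gave 6 of the 21313 genes listed for stored hearts and 3 of the 25149 genes listed for hearts perfused warm after storage. In the first arm, hearts of 6 pigs (Sus scrofa) were biopsied at 0, 12, 24 and 48 h, 3 of them labelled HOPE (pigs 2, 4 and 6) and 3 labelled SCS (pigs 1, 3 and 5). The 0 h biopsies carried the same HOPE or SCS labels as the later ones. In the second arm, biopsies followed 2 h of normothermic machine perfusion (NMP), a warm perfusion of the isolated heart, with 1 library after 24 h of SCS and 2 libraries each after 3, 24 and 48 h of HOPE. SCS and HOPE are not spelled out in the labels; in heart preservation they usually stand for static cold storage on ice and for hypothermic oxygenated perfusion, a cold machine perfusion with oxygen. The labels give the cell type as cardiomyocytes, but the source was whole myocardium, and its biopsies were flash-frozen at the end of the experiment.

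With each heartbeat, calcium enters the muscle cell through L-type channels at the cell membrane and triggers a much larger release from the sarcoplasmic reticulum, the internal calcium store, through ryanodine receptors. For the cell to relax, a pump returns the calcium to the store and a sodium-calcium exchanger moves the rest out of the cell. Cooling slows the pump and the exchanger, and calcium overload on rewarming is a known hazard of heart preservation.

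Recovered read totals were 19722065 to 35099406 per library in the storage arm. The share of values from the 13 mitochondrially encoded genes was 29.0% to 39.5% in the 12 HOPE libraries and 33.1% to 82.4% in the 12 SCS libraries, the highest being the SCS 48 h library of pig 5. Since these were bulk samples, fewer cells of a type and less RNA per cell cannot be told apart. Levels in the storage arm are normalised counts, which are not divided by gene length, so they are compared between hearts and not between genes. Differences are on the scale of log2(value + 1), given ± SE from limma, and group levels are means ± SD of 3 pigs.

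The fitted difference between HOPE and SCS hearts was above 0 for all 6 genes at 0, 12, 24 and 48 h, although centring libraries on cardiomyocyte markers turned PLN at 48 h round (-0.06 log2, with the median of all genes at -0.46). Their median difference came to 0.68, 1.13, 1.46 and 1.47 at the 4 times from 0 to 48 h, while the medians over all 14141 tested genes lay between -0.02 and 0.02. CACNA1C passed the adjusted threshold of 0.05 at 24 and 48 h, as 1 of 6 genes each time. At 24 h limma called 2.04% of all tested genes between HOPE and SCS, and at 48 h it called 6.25%. At 0 h, 0 of the 6 genes and 0.0% of all genes passed, and at 12 h, 0 of the 6 genes and 0.0141% of all genes. At an unadjusted limma p under 0.05 there were 1, 2, 5 and 5 of the 6 genes at 0, 12, 24 and 48 h. Over all tested genes the share at that p was 7.21%, 16.3%, 26.8% and 27.8%. Of the 6 genes, edgeR called 0 at both 0 and 12 h, and DESeq2 called 0 at 0 h and 1 at 12 h. Pigs of a condition stood apart: HOPE pigs 2 and 4 held the 2 highest values of all 6 genes at 0 and 12 h and of 5 genes at 24 and 48 h. Averaged over the 6 genes and 4 times on the log2 scale, HOPE pigs 2, 4 and 6 were at 13.97, 14.11 and 12.82, and SCS pigs 1, 3 and 5 at 13.08, 12.20 and 12.24, so that HOPE pig 6 lay below SCS pig 1.

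**Figure D1:**
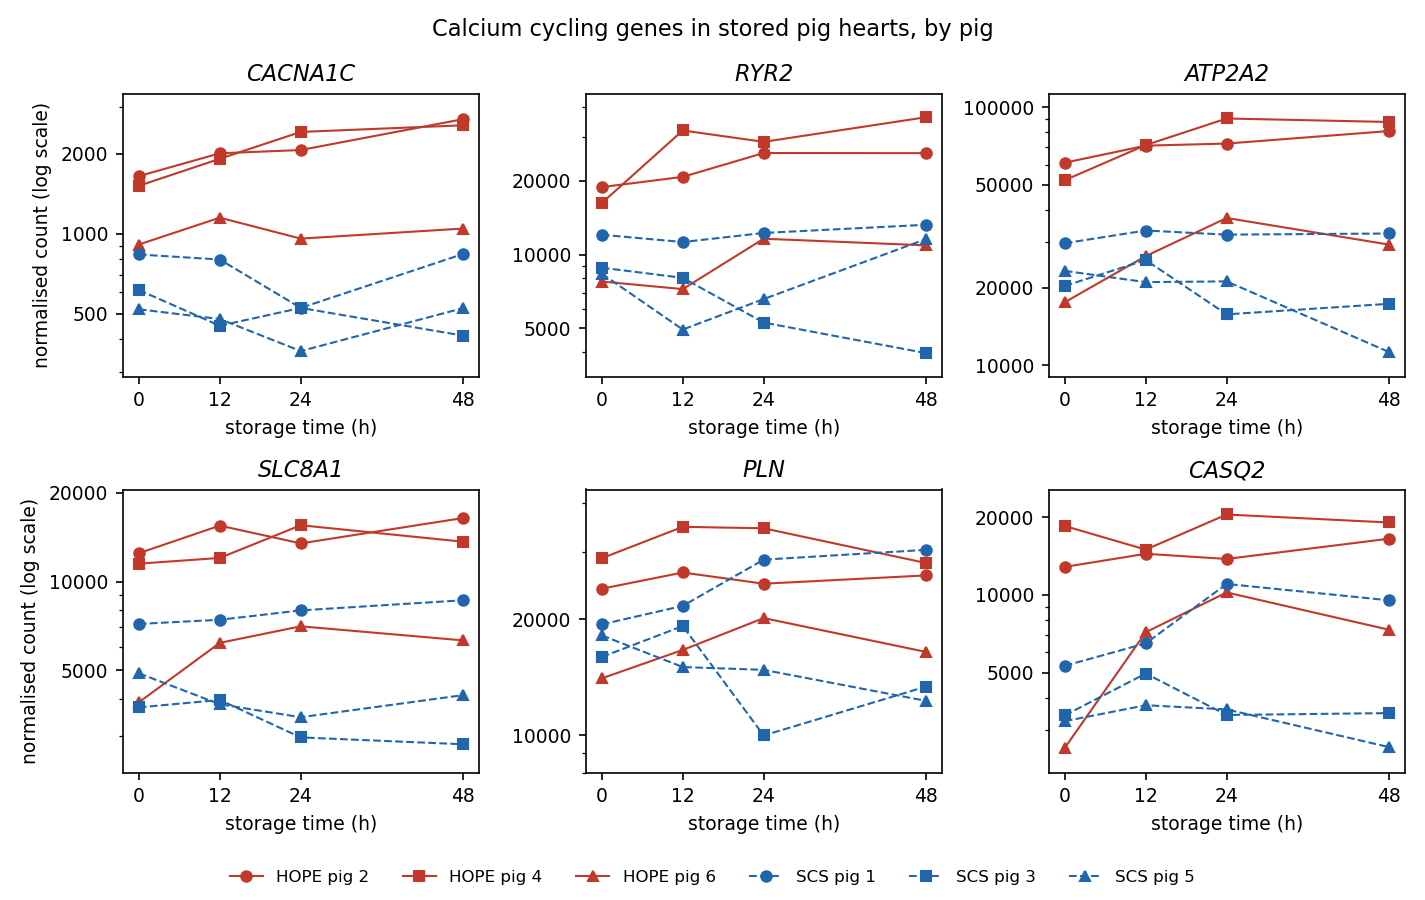
Normalised counts (log scale) of the 6 calcium cycling genes against storage time in h, with 1 line per pig, HOPE in red and SCS in blue. HOPE pigs 2 and 4 run above the others in most panels, HOPE pig 6 meets the SCS pigs at some time for 5 genes, and for CACNA1C all 3 HOPE lines stay above all 3 SCS lines.

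Calcium entry was represented by CACNA1C, which encodes the pore-forming subunit of the cardiac L-type calcium channel (chromosome 5, 69016954 to 69448428, Sscrofa11.1, protein coding). The groups were already apart in the 0 h biopsies, where HOPE pigs 2, 4 and 6 had 1645, 1512 and 909.2 normalised counts and SCS pigs 1, 3 and 5 had 834.0, 613.0 and 518.6. That 0 h difference was 1.03 ± 0.39 (limma, adjusted p = 0.665), and the one at 12 h was 1.56 ± 0.39 (adjusted p = 0.238). At 24 h HOPE pigs 2, 4 and 6 held 2062, 2413 and 957.0 normalised counts of it, and SCS pigs 1, 3 and 5 held 524.9, 524.8 and 361.0. At 48 h it was at 2693, 2555 and 1044 in the HOPE pigs, and at 836.5, 413.1 and 523.3 in the SCS pigs. Every HOPE value was above every SCS value at these 3 times, and pig 6 was the lowest HOPE heart at each. CACNA1C was higher in HOPE by 1.86 ± 0.39 at 24 h (limma, adjusted p = 0.0319) and by 1.77 ± 0.39 at 48 h (limma, adjusted p = 0.0238), with HOPE and SCS means of 1811 ± 760 and 470.2 ± 94.6 at 24 h and of 2097 ± 915 and 591.0 ± 220 at 48 h. Ordered by mean, the 4 HOPE groups came before the 4 SCS groups for each of the 6 genes. The share of all genes ordered in this way was not counted, and these groups are repeated biopsies of the same 6 pigs. Of all neighbours in these orders, only CACNA1C in HOPE 0 h and SCS 0 h lay further apart than the larger SD of the pair. All 3 HOPE values lay above all 3 SCS values for 1 of the 6 genes at 0 h (CACNA1C), 2 at 12 h (CACNA1C and CASQ2), 2 at 24 h (CACNA1C and ATP2A2) and 1 at 48 h (CACNA1C). Over all tested genes this arrangement was found in 5.23%, 11.6%, 13.9% and 10.5% from 0 to 48 h.

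Leaving out single hearts ended the CACNA1C call in several cases. Without pig 2, 3, 4 or 5 the CACNA1C difference was 1.71, 1.95, 1.60 and 1.68 at 24 h and 1.53, 1.54, 1.57 and 1.71 at 48 h. Its adjusted p was then 0.121, 0.167, 0.235 and 0.181 at 24 h and 0.180, 0.104, 0.185 and 0.153 at 48 h (limma), with 0 calls of 6 each time. Leaving out pig 6 gave 5 calls at both times, and leaving out pig 1 gave 5 at 24 h and 4 at 48 h. The share of all genes called without a pig was not counted. Of 74 further calcium handling genes, limma without pig 6 called 16 higher and 5 lower at 24 h, and 19 higher and 3 lower at 48 h. With all pigs it called 1 higher and 1 lower at 24 h, and 3 higher and 0 lower at 48 h. Fitting only the 2 groups compared, or centring on cardiomyocyte markers, also ended the call at both times (adjusted p = 0.0873 and 0.116 at 24 h, 0.214 and 0.0770 at 48 h), as did total-count scaling at 24 h (difference 2.24, adjusted p = 0.0867) and leaving out the SCS 48 h library of pig 5 at 48 h (adjusted p = 0.105).

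Release from the store runs through RYR2, the cardiac ryanodine receptor (chromosome 14, 53652140 to 54406691, protein coding), which overlaps a long non-coding RNA and pseudogenes in the annotation. RYR2 stood at 25899, 28756 and 11597 normalised counts in HOPE pigs 2, 4 and 6 at 24 h, and at 12243, 5284 and 6588 in SCS pigs 1, 3 and 5. At 48 h the HOPE pigs had 25863, 36195 and 10899 counts and the SCS pigs 13215, 3972 and 11542. The groups overlapped at both times, since SCS pig 1 was above HOPE pig 6, and at 48 h SCS pig 5 was above it too. The RYR2 difference was 0.47, 1.14, 1.45 and 1.36 at 0, 12, 24 and 48 h, each ± 0.57 (limma, adjusted p = 0.795, 0.317, 0.122 and 0.129). SCS pig 3 and SCS pig 5 moved apart with time: pig 3 was at 8839, 8036, 5284 and 3972 counts at 0, 12, 24 and 48 h, and pig 5 at 8356, 4950, 6588 and 11542.

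CASQ2, cardiac calsequestrin, binds calcium inside the store close to the ryanodine receptor (chromosome 4, 104918204 to 104984019, protein coding). It was at 16507, 19090 and 7333 normalised counts in HOPE pigs 2, 4 and 6 at 48 h, and at 9534, 3481 and 2573 in SCS pigs 1, 3 and 5. Here too SCS pig 1 lay above HOPE pig 6. The CASQ2 difference was 1.12, 1.23, 1.47 and 1.59 at 0, 12, 24 and 48 h, each ± 0.62 (limma, adjusted p = 0.665, 0.318, 0.141 and 0.107). The 0 h library of HOPE pig 6 held 2553 counts, the lowest CASQ2 value of the arm, and the same heart had 7167, 10223 and 7333 counts at 12, 24 and 48 h. HOPE pigs 2 and 4 spread far less over time, at 12842 and 18496 counts at 0 h.

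Return of calcium to the store depends on ATP2A2, which encodes the pump SERCA2 (chromosome 14, 31674659 to 31744981, protein coding, overlapping ANAPC7 in the annotation). At 24 h ATP2A2 was at 72380, 90555 and 37231 normalised counts in HOPE pigs 2, 4 and 6, and at 32085, 15744 and 21134 in SCS pigs 1, 3 and 5. Its values at 48 h were 80917, 87784 and 29372 in HOPE and 32413, 17295 and 11261 in SCS. The groups were apart at 24 h and overlapped at 48 h, again through SCS pig 1 and HOPE pig 6. The ATP2A2 difference was 0.67, 0.97, 1.50 and 1.68 at 0, 12, 24 and 48 h, each ± 0.53 (limma, adjusted p = 0.706, 0.344, 0.0936 and 0.0565). DESeq2 on recovered reads called it at 24 and 48 h (adjusted p = 0.0283 and 0.0117), and edgeR did not. At both times DESeq2 also called more of all tested genes than limma or edgeR. Of 74 further calcium handling genes, DESeq2 called 9 higher and 2 lower at 24 h, and 7 higher and 3 lower at 48 h.

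PLN encodes phospholamban, the small protein that inhibits SERCA2 until it is phosphorylated (chromosome 1, 43449354 to 43458925, protein coding, overlapping CEP85L). PLN had the smallest fitted difference of the 6 genes at each time, with means at 48 h of 23510 ± 6172 normalised counts in HOPE and 18662 ± 10101 in SCS. Its HOPE values at 48 h were 26015, 28036 and 16479, and its SCS values 30309, 13377 and 12299, so that the highest heart was an SCS one. The difference was 0.26 ± 0.40, 0.43 ± 0.40, 0.68 ± 0.40 and 0.42 ± 0.40 at 0, 12, 24 and 48 h (limma, adjusted p = 0.842, 0.562, 0.268 and 0.502).

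The log2 ratio of ATP2A2 to PLN compares pump and inhibitor transcripts within a library and does not depend on how libraries are scaled. It was 1.64, 1.65 and 0.83 in HOPE pigs 2, 4 and 6 at 48 h, and 0.10, 0.37 and -0.13 in SCS pigs 1, 3 and 5. Over 0, 12, 24 and 48 h the HOPE means ran 0.84 ± 0.51, 1.04 ± 0.38, 1.28 ± 0.35 and 1.37 ± 0.47 (SD, n = 3). Those of SCS ran 0.44 ± 0.15, 0.50 ± 0.11, 0.45 ± 0.25 and 0.11 ± 0.25 (SD, n = 3). HOPE and SCS pigs did not overlap at 12, 24 and 48 h, where the differences were 0.54, 0.83 and 1.26, and they overlapped at 0 h, where the difference was 0.40. The two-sided exact permutation p was 0.1 at each of those 3 times, the smallest that 3 against 3 allows, and 0.4 at 0 h (Benjamini-Hochberg adjusted over 14 ratio tests, 0.35 and 0.509). The change of the ratio between 0 and 48 h was 0.53 ± 0.25 in HOPE and -0.32 ± 0.30 in SCS, with no overlap (exact permutation p = 0.1, adjusted 0.35).

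**Figure D2:**
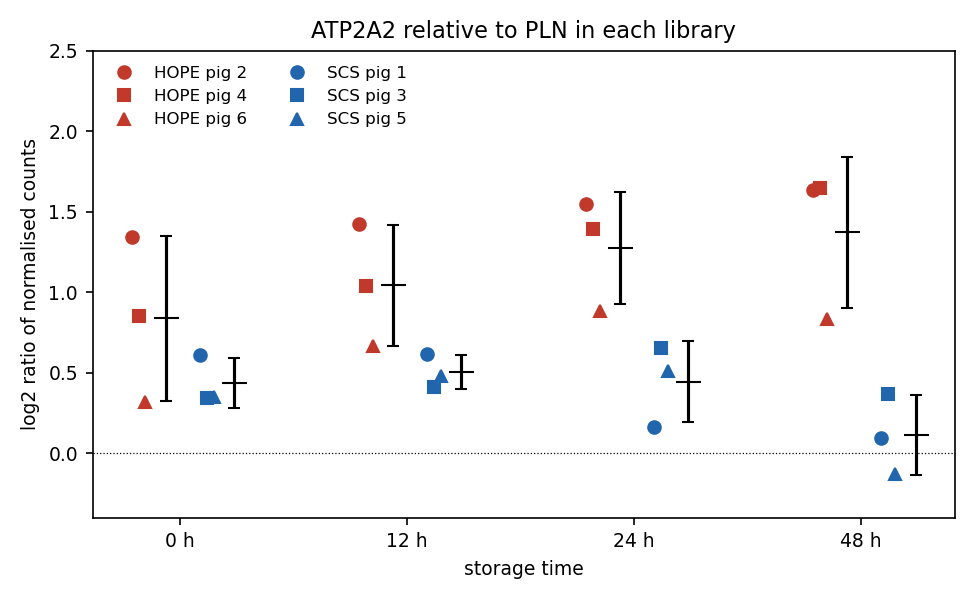
Log2 ratio of ATP2A2 to PLN normalised counts in each library by storage time, with HOPE pigs in red and SCS pigs in blue; black marks are means and bars are SD of 3 pigs. The HOPE points lie above the SCS points at 12, 24 and 48 h, with means of 1.37 and 0.11 at 48 h, and overlap them at 0 h.

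Calcium leaves the cell mainly through the sodium-calcium exchanger NCX1, encoded by SLC8A1 (chromosome 3, 99823503 to 100257306, protein coding). SLC8A1 was at 13472, 15524 and 7055 normalised counts in HOPE pigs 2, 4 and 6 at 24 h, and at 7989, 2965 and 3471 in SCS pigs 1, 3 and 5. At 48 h the HOPE pigs had 16412, 13655 and 6324 counts and the SCS pigs 8643, 2812 and 4122, and the groups overlapped at both times by SCS pig 1. The SLC8A1 difference was 0.70, 1.12, 1.39 and 1.27 at 0, 12, 24 and 48 h, each ± 0.53 (limma, adjusted p = 0.699, 0.301, 0.112 and 0.123). Relative to ATP2A2, the other main route of calcium removal, SLC8A1 had a log2 ratio of -2.40 ± 0.25 in HOPE and -1.99 ± 0.59 in SCS at 48 h, with overlapping pigs (exact permutation p = 0.4, adjusted 0.509). Across the 7 tests of this ratio the exact permutation p was 0.3 or more.

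**Figure D3:**
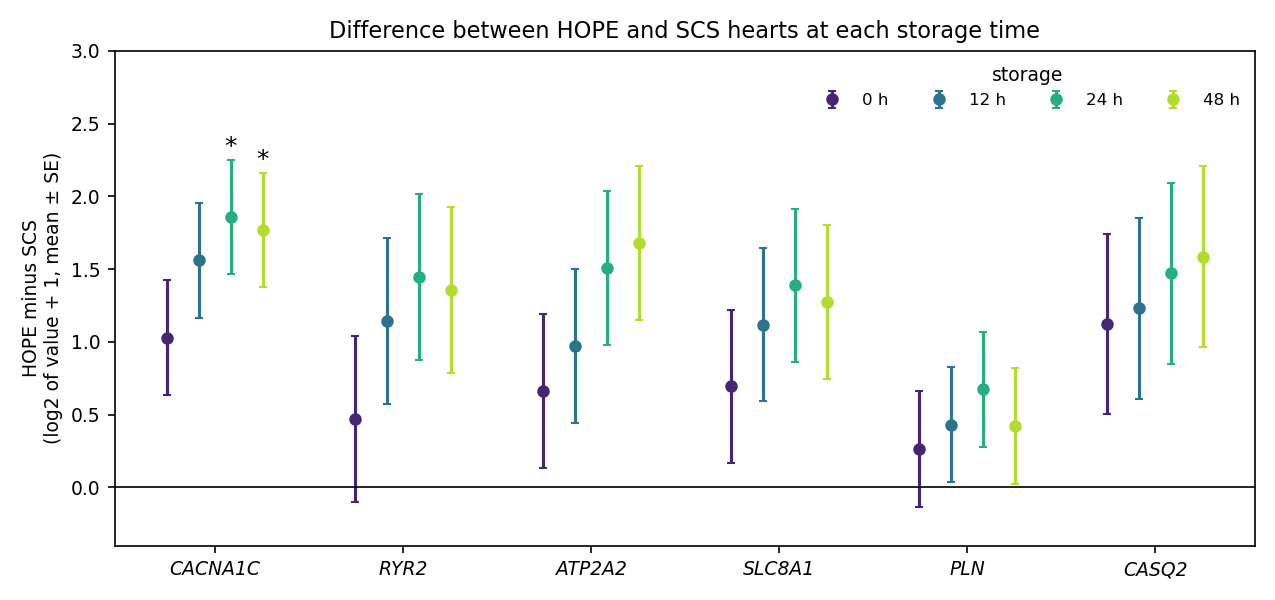
Fitted difference between HOPE and SCS hearts, as log2 of the normalised count plus 1, for the 6 genes at 0, 12, 24 and 48 h of storage; points are estimates, bars are SE, and asterisks mark limma adjusted p below 0.05. CACNA1C carries the only 2 asterisks, at 1.86 and 1.77, and PLN has the smallest differences, from 0.26 to 0.68; with centring on cardiomyocyte markers its 48 h difference is -0.06.

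With the pig as a replicate block, more of the 6 genes passed. Libraries of a pig were then given a correlation of 0.44, estimated over all genes. Each pig had 1 condition, so HOPE against SCS compares 3 pigs with 3, and the block adds no pairing to it. The CACNA1C SE was 0.31 with the block and 0.39 without it. A fit of only the 2 groups gave CACNA1C an adjusted p of 0.0873 at 24 h and 0.214 at 48 h (limma). For 24 h the blocked fit called 3 of the 6 genes, namely CACNA1C (adjusted p = 0.00854), ATP2A2 (0.0280) and SLC8A1 (0.0290), against 9.87% of all tested genes. For 48 h the blocked fit called 4 of the 6, namely CACNA1C (adjusted p = 0.00449), ATP2A2 (0.0141), SLC8A1 (0.0330) and CASQ2 (0.0459), against 11.5% of all tested genes. These blocked counts were 0 at both times without pig 2, 4 or 5, 1 without pig 3, 6 without pig 1 and 5 without pig 6. The share of all genes called in the blocked fits without a pig was not counted.

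Within a condition, the design asks how the levels moved from the heart's own 0 h biopsy. In HOPE hearts, 16 of the 18 pairs of gene and pig were above their 0 h value at 12 h, 18 of 18 at 24 h and 17 of 18 at 48 h. In SCS hearts the numbers were 9, 7 and 9 of 18. The 18 pairs are not independent, since they are 6 genes in 3 pigs and each pig has a single 0 h biopsy. The share of such pairs over all genes was not counted. By the fitted change of a group, another measure, 52.1%, 52.8% and 52.5% of all tested genes were above 0 in HOPE, and 48.8%, 47.9% and 47.2% in SCS. On that measure 6, 6 and 6 of the 6 genes were above 0 in HOPE, and 3, 1 and 1 in SCS. For ATP2A2 the change between 0 and 48 h was 0.41, 0.75 and 0.74 on the log2 scale in HOPE pigs 2, 4 and 6, and 0.13, -0.23 and -1.04 in SCS pigs 1, 3 and 5. For CACNA1C it was 0.71, 0.76 and 0.20 in the HOPE pigs, and 0.00, -0.57 and 0.01 in the SCS pigs. CASQ2 changed less evenly, at 0.36, 0.05 and 1.52 in HOPE and 0.84, 0.03 and -0.33 in SCS, with HOPE pig 6 and SCS pig 1 the most displaced hearts.

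None of the 6 genes passed for any change from 0 h in limma, edgeR, DESeq2 or the blocked fit. In the main limma fit, which does not pair the biopsies of a pig, 0 of them had an unadjusted p under 0.05. In the blocked fit, which pairs them, unadjusted p at 24 h ran from 0.00265 (ATP2A2) to 0.220 (PLN) in HOPE. It ran from 0.0118 (CACNA1C) to 0.531 (ATP2A2) in SCS, and the lowest adjusted p at 24 h was 0.322. Each SE below is from the unpaired fit. Limma called 0.0% of all tested genes in each of the 6 comparisons, namely HOPE and SCS at 12, 24 and 48 h against 0 h. The median change of the 6 genes was 0.34, 0.54 and 0.59 in HOPE at 12, 24 and 48 h, and -0.01, -0.18 and -0.16 in SCS, where medians over all genes were 0.01 to 0.02 in HOPE and -0.03 to -0.01 in SCS. The fitted 48 h change in HOPE was 0.70 ± 0.57 for RYR2, 0.64 ± 0.62 for CASQ2, 0.63 ± 0.53 for ATP2A2, 0.56 ± 0.39 for CACNA1C, 0.45 ± 0.53 for SLC8A1 and 0.10 ± 0.40 for PLN. The PLN estimate was -0.01 with quantile normalization and -0.20 with centring on cardiomyocyte markers, and without the 0 h library of HOPE pig 6 the estimates were -0.20 for PLN, -0.09 for SLC8A1 and -0.22 for CASQ2. In SCS the 48 h change was -0.38 ± 0.53 for ATP2A2, -0.18 ± 0.57 for RYR2, -0.18 ± 0.39 for CACNA1C, -0.13 ± 0.53 for SLC8A1, -0.06 ± 0.40 for PLN and 0.18 ± 0.62 for CASQ2. The SCS estimate of CASQ2 was -0.80 with total-count scaling and -0.02 when scaled without mitochondrial genes, and that of PLN was 0.01 with centring on cardiomyocyte markers.

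Whether the 2 courses differed was tested as the change in HOPE minus the change in SCS. Here too 0 of the 6 genes passed in limma, edgeR, DESeq2 and the blocked fit. The unpaired limma fit had 0 at an unadjusted p under 0.05 and called 0.0% of all genes for each of the 3 times. In the blocked fit, the 48 h unadjusted p ran from 0.00238 (ATP2A2) to 0.606 (PLN), with adjusted p of 0.134 and 0.853. The median of the 6 genes was 0.36, 0.76 and 0.66 for 12, 24 and 48 h, against 0.02, 0.05 and 0.06 over all genes. At 48 h the difference in change was 1.02 ± 0.75 for ATP2A2, 0.89 ± 0.81 for RYR2, 0.74 ± 0.56 for CACNA1C, 0.58 ± 0.74 for SLC8A1, 0.46 ± 0.88 for CASQ2 and 0.16 ± 0.56 for PLN, with limma adjusted p from 0.988 to 0.992; it was -0.21 for PLN with centring on cardiomyocyte markers and -0.05 for CASQ2 with edgeR.

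Beyond these 6, 80 further genes of cardiac calcium handling were followed by role, of which 76 were found and 74 were tested in the storage arm. Between HOPE and SCS, limma called 1 higher and 1 lower at 24 h and 3 higher at 48 h, 2 of them named here, against 2.04% and 6.25% of all tested genes. The median over the 74 was 0.12, 0.07, 0.10 and 0.18 from 0 to 48 h. The adenylyl cyclase ADCY6, which makes cyclic AMP on adrenergic stimulation, averaged 9837 ± 1834 normalised counts in HOPE hearts and 4294 ± 581 in SCS hearts at 24 h (SD, n = 3), higher by 1.19 ± 0.29 (limma, adjusted p = 0.0431). MCUB, the inhibitory pore subunit of the mitochondrial calcium uniporter, was at 49.0 ± 4.17 in HOPE and 110.7 ± 18.3 in SCS at 24 h, lower with a difference of -1.15 ± 0.29 (limma, adjusted p = 0.0491). At 48 h CAMK2G, a subunit of the calmodulin-dependent kinase CaMKII, was at 1499 ± 323 in HOPE and 803.7 ± 58.2 in SCS, higher by 0.88 ± 0.20 (limma, adjusted p = 0.0238). ADCY6 was also higher at 48 h, by 1.08 ± 0.29 (limma, adjusted p = 0.0377).

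By role, the kinases, phosphatases and adrenergic control genes had the highest median difference at 48 h, 0.64, with 18 of 23 above 0 and 2 called. At 0 h the same role already had a median of 0.41 with 19 of 23 above 0, and the other 7 roles had 0 h medians of -0.41 to 0.14. The 13 tested partners of the ryanodine receptor and the dyad, the junction where channel and receptor meet, had a median of 0.06 with 7 above 0 and 0 called. The 8 other L-type and T-type channel genes had a median of -0.37 with 2 above 0 and 0 called. Mitochondrial uptake genes had a median of 0.40 with 5 of 7 above 0, extrusion and sodium-side genes -0.27 with 3 of 9 above 0, and calcium buffers 0.13 with 4 of 5 above 0. IP3 receptors and store-operated entry had -0.06 with 2 of 6 above 0, and SERCA regulators and the other pumps -0.06 with 1 of 3 above 0. With the replicate block, 10 of the 74 were called higher and 3 lower at 24 h, and 9 higher and 1 lower at 48 h, where the blocked fit called 9.87% and 11.5% of all tested genes; with centring on cardiomyocyte markers, 0 were called at either time. TRDN, or triadin, which anchors calsequestrin to the ryanodine receptor, was the 1 lower gene at 48 h in the blocked fit, named here after its value was seen (-0.82 ± 0.26, adjusted p = 0.0463; adjusted p = 0.0773 without the block).

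Elsewhere limma called 0 of the 74, and the genes with the smallest p did not pass. At 0 h these included ADCY6 (0.75) and the IP3 receptor ITPR1 (-0.84), and at 12 h they were ADCY6 (1.03), MCUB (-0.88) and the counter-ion channel TMEM38B (0.84), as HOPE minus SCS on the log2 scale (limma, adjusted p = 0.665 at 0 h and 0.238 to 0.253 at 12 h). For changes from 0 h in HOPE they were CACNA1G (-1.23), CAMK2G (0.32) and SLC8B1 (0.32) at 12 h, SLC8A2 (-1.03), HSP90B1 (0.31) and CAMK2G (0.31) at 24 h, and CAMK2G (0.36), HSP90B1 (0.23) and ATP2B1 (-0.24) at 48 h. In SCS they were CACNA1G (-1.32), SMDT1 (0.45) and ATP2B2 (-0.85) at 12 h, ORAI1 (0.29), ITPR3 (-0.79) and SMDT1 (0.42) at 24 h, and MICU3 (-1.91), STIM2 (-1.44) and TRDN (0.69) at 48 h. CACNA1G, a T-type channel, thus had its negative 12 h value in both conditions. The change in HOPE minus that in SCS was 0.59 for TMEM38B, 1.04 for ATP2B2 and -0.47 for SMDT1 at 12 h. At 24 h it was -1.80 for CACNA2D2, 0.47 for CAMK2G and 0.57 for CAMK2D, and at 48 h it was 0.68 for CAMK2G, 1.63 for MICU3 and -0.63 for SMDT1. The lowest limma adjusted p among these changes was 0.413, for MICU3, a regulator of the mitochondrial uniporter, in SCS at 48 h.

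Cardiomyocyte markers differed in the sign of their fitted differences between HOPE and SCS hearts, and their summed levels overlapped. Of 10 muscle genes taken as such markers, 8 were found in the storage arm and none was at 0, and at 0 h their summed level was 1066179 to 1554720 normalised counts in HOPE and 1050291 to 1247275 in SCS. At 24 h the sums were 1434659 to 1633353 in HOPE and 967248 to 1624341 in SCS, and at 48 h they were 1498927 to 1622421 in HOPE and 996385 to 1713666 in SCS. Limma called 0 of the 8 between HOPE and SCS at 24 and 48 h, with median differences of 0.44 and 0.30, against 1.46 and 1.47 for the 6 calcium cycling genes. At 48 h the fitted difference was 1.62 for MYH6, 1.48 for MYH7 and 1.08 for ACTN2, sizes in the range of the 6 genes, and 0.34 for MYL3, 0.25 for ACTC1, -0.02 for TNNT2, -0.07 for MYL2 and -0.84 for TNNI3 (limma, adjusted p = 0.0728 for MYH7, the lowest). MYH7, the main myosin heavy chain of the ventricle, was at 689826, 697256 and 440162 normalised counts in HOPE pigs 2, 4 and 6 at 48 h, and at 402432, 157419 and 155148 in SCS pigs 1, 3 and 5. All HOPE values of MYH7 lay above all SCS values at 12, 24 and 48 h, an arrangement found in 11.6%, 13.9% and 10.5% of all tested genes. All HOPE values lay below all SCS values for MYL2 at 12 h and for TNNI3, an inhibitory troponin, at 48 h. The share of all genes lying below in this way was not counted. Per library, the mean log2 level of the 6 genes minus that of the markers ran from -3.81 to -2.76 in HOPE and from -4.42 to -3.54 in SCS. The ranges overlapped through HOPE pig 6, at -3.81 to -3.66, and SCS pig 1, at -3.84 to -3.54. Centred on these markers, CACNA1C differed by 1.38 ± 0.36 at 24 h and 1.29 ± 0.36 at 48 h.

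**Figure D4:**
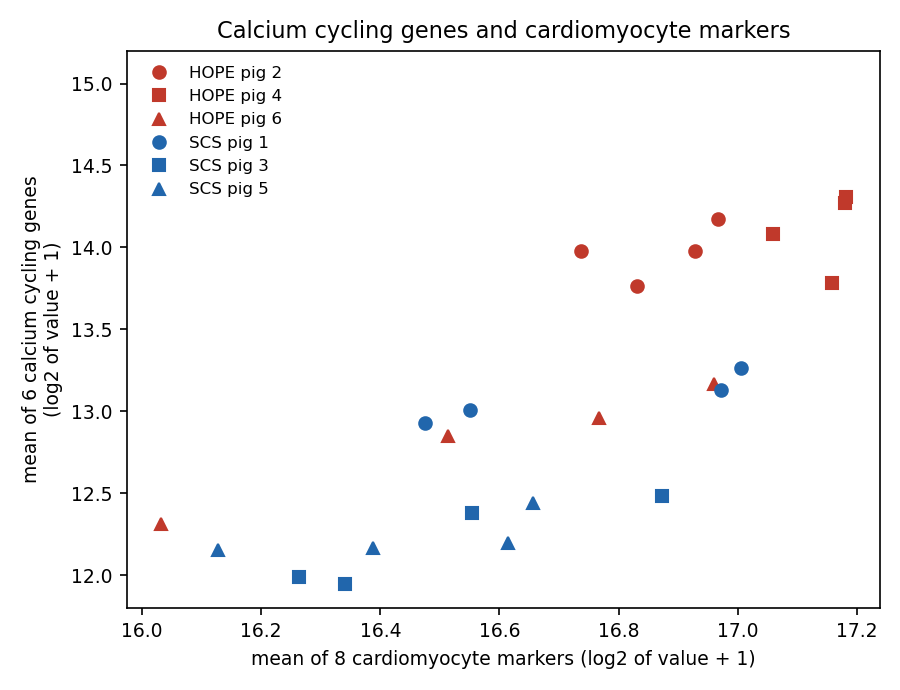
Mean log2 level of the 6 calcium cycling genes (vertical) against that of 8 cardiomyocyte markers (horizontal) in the 24 storage libraries, with HOPE pigs in red and SCS pigs in blue. Libraries of HOPE pigs 2 and 4 lie highest, from 13.77 to 14.31. HOPE pig 6 lies beside SCS pig 1 at 12, 24 and 48 h, while its 0 h library lies lower, at 12.31 with markers at 16.03. At like marker levels the libraries of different pigs differ by over 1 log2 unit.

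Markers of other cell types differed in part, some of their sums already at 0 h. Of 6 T and NK cell markers, limma called 2 lower in HOPE at 24 h and 4 at 48 h. None of these markers had 0 counts throughout. Their sum was 314 to 387 normalised counts in HOPE and 757 to 1812 in SCS at 24 h, and 238 to 358 in HOPE and 710 to 1157 in SCS at 48 h. The 8 endothelial markers, none at 0, had median differences of -0.73 at 24 h and -0.17 at 48 h with 0 called, and sums at 48 h of 20068 to 31913 in HOPE and 11635 to 41399 in SCS. Red cell markers summed to 168 to 688 in HOPE and 36.4 to 103 in SCS at 48 h, with 1 of 3 called higher. At 48 h the smooth muscle and pericyte sums were 10376 to 18511 in HOPE and 18590 to 33430 in SCS, with 1 of 6 called lower. The skeletal muscle sums at 48 h were 36.0 to 127 in HOPE and 509 to 1374 in SCS, with the 1 tested gene called lower. At 0 h smooth muscle and pericyte sums were already 9006 to 21095 in HOPE and 21537 to 26171 in SCS. Skeletal muscle sums at 0 h were 73.2 to 235 in HOPE and 549 to 1206 in SCS, while the 0 h sums of the other lists overlapped. Fibroblast markers summed to 66439 to 69383 in HOPE and 89768 to 108535 in SCS at 24 h, with 1 of 7 called lower. Macrophage, atrial and adipocyte markers had 0 called at 24 and 48 h, with medians at 48 h of 0.65, -1.04 and -1.16. The part of these cell types and of the mitochondrial share in the differences of the 6 genes was not tested. The 6 genes also differ in length, from 9.57 kb for PLN to 755 kb for RYR2. Median differences at 48 h were -0.16 in the shortest quartile of genes and 0.15 in the longest, and 0.20 in the 250 genes of 400 kb and over.

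By their course over the 24 libraries, the 6 genes had near neighbours among 9261 other genes with a symbol and a mean of at least 100. Likeness was the root mean square distance between log2 levels, each centred on its own mean, so that smaller values mean more alike. For CACNA1C the nearest were CASZ1 (0.21), MTMR1 (0.26) and SPTB (0.27), and for RYR2 they were CDON (0.31), NHSL1 (0.32) and PHKA1 (0.32). ATP2A2 was nearest to SOD2 (0.20), MYOM3 (0.21) and SGCB (0.21), and SLC8A1 to ANK3 (0.18), CMYA5 (0.21) and SOD2 (0.21). CASQ2 was nearest to SRL (0.24), PPP1R12B (0.25) and TMEM120B (0.27), and PLN to HSPD1 (0.16), PKIA (0.16) and ATPAF1 (0.17). Among the 6 genes themselves, ATP2A2 and SLC8A1 were the closest pair at 0.28. PLN stood furthest from the other 5, at 0.45 from SLC8A1 and up to 0.66 from CACNA1C, and it also varied least over the libraries, with a spread of 0.48 against 0.82 to 0.99 for the other 5.

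After NMP, 3 of the 6 genes could be read: RYR2, CACNA1C and CASQ2. ATP2A2, SLC8A1 and PLN were not found by name in that table and were not analysed here. Values in this arm were read as TPM, which are divided by gene length. The columns sum to 1000000, and no value is shared by more than 13 genes in a library, although reads scaled only by depth would give many low genes the same value; no label states the unit. If they are TPM, genes can be set beside each other, and in all 6 HOPE libraries the order from the highest was CASQ2, RYR2, CACNA1C. CACNA1C was at 26.5 and 15.0 TPM after 3 h of HOPE, 40.1 and 28.4 after 24 h and 27.0 and 12.0 after 48 h. RYR2 was at 39.9 and 37.6 TPM after 3 h, 49.4 and 60.5 after 24 h and 39.4 and 42.0 after 48 h. Both were highest after 24 h, and their 24 h libraries lay above all their 3 h and 48 h libraries. The share of all genes with this arrangement was not counted. Over all tested genes, 69.1% were above 0 for 24 h minus 3 h, with a median of 0.22. For 48 h minus 24 h, 23.7% were above 0, with a median of -0.19. CASQ2 was at 117.8 and 52.7 TPM after 3 h, 68.6 and 61.9 after 24 h and 50.6 and 83.8 after 48 h, with the 3 times overlapping. Limma called 0 of the 3 genes between HOPE 24 h and 3 h, between 48 h and 3 h and between 48 h and 24 h, also at an unadjusted p under 0.05, against 0.0%, 0.0% and 0.0684% of all 4388 tested genes. The difference of CACNA1C between HOPE 24 h and 3 h was 0.73 ± 0.44 (limma, adjusted p = 0.469), and that of RYR2 was 0.49 ± 0.26 (adjusted p = 0.424).

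The single library taken after 24 h of SCS and NMP held 3.34 TPM of CACNA1C, 2.63 of RYR2 and 2.13 of CASQ2, below every HOPE library, whose lowest values were 12.0, 37.6 and 50.6 TPM. Against the mean of the HOPE 24 h libraries these levels were 9.75%, 4.78% and 3.26%, and on the same reading the order of the 3 genes was the opposite of that in HOPE. Limma called all 3 lower than after 24 h of HOPE, with differences of -3.94 ± 0.32 log2 for RYR2 (limma, adjusted p = 0.000327), -4.40 ± 0.52 for CASQ2 (0.000714) and -3.00 ± 0.53 for CACNA1C (0.00342), but centring on cardiomyocyte markers gave 0.80, 0.34 and 1.74 and 0 calls, with the median of all genes at 3.62. In this comparison 54.2% of all tested genes were called and the median of all genes was -1.12. The fit assumed that the lone SCS library varied like the HOPE pairs, and with quantile normalization CACNA1C was at -1.55 (adjusted p = 0.0732).

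Cardiomyocyte markers were low in the same library. Of the 10, 6 were found in this arm and none was at 0; their sum was 2480 TPM in the SCS library and 43476 and 57080 in the HOPE 24 h libraries. Each of the 6 stood at 2.14% (MYH7) to 6.08% (MYL3) of its HOPE 24 h mean, and all 6 were called lower. The red cell markers HBB, ALAS2 and EPB42 together were at 6161 TPM in the SCS library and at 34.2 and 126 TPM in the HOPE 24 h libraries, and both that were tested were called higher. They were not high in that library alone: the HOPE 48 h libraries held 3125 and 1580 TPM, with both called higher than after 24 h of HOPE, and the HOPE 3 h libraries 152 and 105 TPM. Fibroblast markers summed to 2592 TPM in the SCS library and 837 and 1149 TPM in the HOPE 24 h libraries, with 3 of 4 called higher, and endothelial markers to 72.3 TPM in the SCS library and 204 and 236 TPM in the HOPE 24 h libraries, with 3 of 4 called lower. Of the other lists, smooth muscle had 2 of 4 and skeletal muscle 1 of 1 called lower, T and NK cells had 1 of 1 called higher, atrial and macrophage markers had 0 of 2 each called, and adipocyte markers were not tested. The part of these cell types in the levels of the 3 calcium genes was not tested. Of the 80 further calcium handling genes, 35 were tested in this arm and 23 were called lower in the SCS library, with a median of -2.03 and with 0 called higher, in a comparison that called 54.2% of all tested genes. The 8 with the smallest p were JPH1 and HRC of the release unit (-5.12 and -4.74 log2), ADCY6 (-4.19), the counter-ion channel TMEM38A (-3.79), TRDN (-3.57), the CaMKII subunit CAMK2D (-3.15), the phosphatase inhibitor PPP1R1A (-3.15) and the sodium pump regulator FXYD1 (-2.68), with limma adjusted p from 0.000271 to 0.00158. Between the HOPE times 0 of the 35 passed, and the smallest p were those of PDE4B (1.18), JPH1 (0.69) and TRDN (0.65) for 24 h minus 3 h, ADCY6 (-0.84), CASQ1 (-1.31) and ADRB1 (-0.77) for 48 h minus 3 h, and TRDN (-0.62), ADCY6 (-0.52) and LETM1 (-0.56) for 48 h minus 24 h (limma, adjusted p = 0.311 to 0.996).

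**Figure D5:**
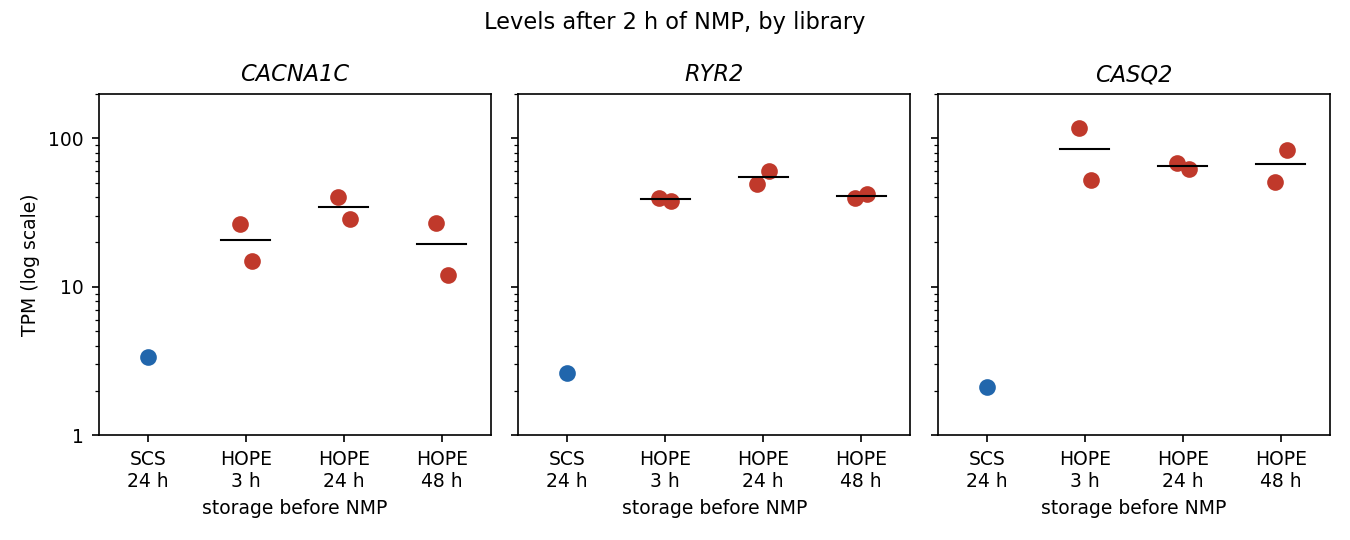
TPM (log scale) of CACNA1C, RYR2 and CASQ2 in each library after 2 h of NMP, with the SCS library in blue and HOPE libraries in red; black lines are means of 2 libraries. The SCS library lies at 2.13 to 3.34 TPM, below all 6 HOPE libraries; with centring on cardiomyocyte markers its differences from HOPE 24 h are above 0 for all 3 genes.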

How the data were processed

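Myocardial RNA was sequenced from poly(A) libraries prepared with different kits in the 2 arms, per the labels' protocols. The storage table holds normalized counts, a signal the authors scaled per library, per the file headers; dividing each library by its smallest step left whole numbers for 100% of the values (tolerance 1e-06), which gave back the reads for count tests. The NMP table is called normalized counts too, but its columns each sum to the same total, and at most 13 genes share a value in a library, so the deposited values were read as TPM, which no label states, and their depth is unknown. The submitters' processing notes name the build Sscrofa11.1, the aligners STAR 2.5.2b and HISAT2 2.2.1, the counters Subread 1.5.2 and featureCounts 2.0.6, and DESeq2, without assigning them to an arm; no source used here states the strand setting of the counting, so reads of overlapping genes cannot be told apart. A further 11 columns after NMP had no matching sample and were left unused. The design was written for normalized counts in both arms; pseudocount and filter were kept for TPM.

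Each arm was fitted over all its libraries with limma 3.58.1 in R 4.3.3 on log2(value + 1), for the 14141 and 4388 genes with a mean of at least 10, with Benjamini-Hochberg adjustment over all of them; this scale understates changes of low genes. Pigs were the replicates in the storage arm; after NMP the labels number the samples without naming animals, so that p-values there reflect a spread that may be technical. A pig gave all 4 biopsies of its series, and deviations from group means correlated in all 36 same-pig pairs (r = 0.232 to 0.730), so a fit with the pig as replicate block was set beside the main one. edgeR 4.0.16 and DESeq2 1.42.0 were run on the recovered reads; between HOPE and SCS over the 4 times, edgeR called 0, 2, 219 and 841 genes and DESeq2 11, 86, 1521 and 1931, where limma called 0, 2, 288 and 884. Code was tested on simulated data. CACNA1C and CASQ2 stand under other gene IDs in the NMP table. Positions come from RefSeq's Sscrofa11.1 table. Genes outside the 6 were named when they passed, at most 8 per comparison by p, or else the 3 with the smallest p; 1 gene so chosen is not reported here. The 6 genes, the 8 lists of calcium handling roles and the 10 marker lists were chosen with earlier results of these data known.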

Additional observations from a re-analysis of the deposited data

Results flagged for a closer look

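CACNA1C lay above its own 0 h value in every HOPE pig and below it in every SCS pig, at 12 h and at 24 h. Both times were compared with the same 0 h biopsies. The gene was flagged from these same data, and the share of all genes with such a split was not counted. At 12 h the changes were 0.29, 0.34 and 0.34 on the log2 scale in HOPE pigs 2, 4 and 6, and -0.06, -0.45 and -0.12 in SCS pigs 1, 3 and 5. At 24 h they were 0.33, 0.67 and 0.07 in HOPE and -0.67, -0.22 and -0.52 in SCS. The fitted difference in change was 0.53 ± 0.56 at 12 h and 0.83 ± 0.56 at 24 h, and neither passed over all genes (limma, adjusted p = 0.9998 and 0.9997; with the replicate block, adjusted p = 0.976 and 0.323). At 48 h the directions no longer split, since SCS pigs 1 and 5 were at 0.00 and 0.01.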

How the results depend on the processing

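The number of the 6 genes called between HOPE and SCS kept within 1.5 times of the reported 0, 0, 1 and 1 (0, 12, 24 and 48 h) with pseudocounts of 0.5 and 4, with no filter and with edgeR. At 24 h it was 0 with total-count scaling, 0 with fits of only the groups compared, 0 with centring on cardiomyocyte markers, 2 with DESeq2 and 3 with the replicate block. At 48 h it was 0 with fits of only the groups compared, 0 with centring on the markers, 0 without the SCS 48 h library of pig 5, 2 with DESeq2, 2 with quantile normalization, 2 when scaled without mitochondrial genes, 3 without the HOPE 0 h library of pig 6, 4 with the replicate block and 6 with total-count scaling, where the median of all genes was 1.12. DESeq2 called 1 at 12 h, and at each time it called more of all tested genes than limma. Leaving out each pig in turn gave 0 to 1 at 0 h, 0 to 4 at 12 h, 0 to 5 at 24 h and 0 to 5 at 48 h. The share of all genes called without a pig was not counted. The replicate block changed no count of called genes for changes from 0 h, for their differences or between HOPE times after NMP, where it stayed at 0; with the SCS library alone in its group, the block was not fitted for that comparison. Whether the sample numbers pair libraries after NMP cannot be decided (r = 0.0900 to 0.384 over 6 pairs). Against 24 h of HOPE, the lone SCS library gave 3 calls of 3, 3 when each HOPE library was left out and 0 with centring on the markers.

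Signs turned for values that had not passed the test, apart from the 3 genes after NMP. With centring on cardiomyocyte markers, PLN stood at -0.057 between HOPE and SCS at 48 h, 0.011 for SCS 48 h minus 0 h, -0.20 for HOPE 48 h minus 0 h and -0.21 for the difference of those changes; after NMP, CACNA1C stood at 0.065 for 48 h minus 3 h of HOPE, and the SCS library at 1.74 for CACNA1C, 0.80 for RYR2 and 0.34 for CASQ2. PLN for SCS 48 h minus 0 h was 0.073 with edgeR, 0.064 with DESeq2 and 0.18 without the SCS 48 h library of pig 5; CASQ2 for the same change was -0.80 with total-count scaling and -0.016 when scaled without mitochondrial genes. Quantile normalization gave -0.014 for PLN in HOPE 48 h minus 0 h. The difference of the 48 h changes was -0.000925 for PLN and -0.054 for CASQ2 with edgeR, -0.041 for CASQ2 with DESeq2, -0.077 for PLN without the SCS 48 h library of pig 5, and -0.14 for PLN and -0.40 for CASQ2 without the HOPE 0 h library of pig 6. Without that last library, HOPE 48 h minus 0 h was -0.20 for PLN, -0.093 for SLC8A1 and -0.22 for CASQ2. A pseudocount of 0.1 gave -0.000513 for CASQ2 between 48 and 24 h of HOPE after NMP.

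With each pig left out in turn, SCS 48 h minus 0 h ran from -0.15 to 0.44 for CASQ2, -0.41 to 0.19 for PLN, -0.51 to 0.30 for RYR2, -0.33 to 0.0098 for SLC8A1 and -0.28 to 0.0087 for CACNA1C, and the difference of the 48 h changes of PLN from -0.092 to 0.51. The log2 ratio of SLC8A1 to ATP2A2, HOPE minus SCS, ran from -0.066 to 0.13 at 0 h and from -0.25 to 0.051 at 24 h. With each NMP library left out, CASQ2 ran from -0.85 to 0.30 for 24 h minus 3 h, -0.85 to 0.30 for 48 h minus 3 h and -0.36 to 0.36 for 48 h minus 24 h, and CACNA1C from -0.69 to 0.41 for 48 h minus 3 h. The causes of these turns were not tested. Centring on the markers, leaving out single libraries and the blocked fits without a pig were chosen after seeing the data. With 3 pigs per condition, the residual degrees of freedom were 16 in the storage arm, and 3 after NMP, where the depth is unknown. The 16 count the repeated biopsies of a pig as separate libraries, while HOPE against SCS rests on 3 pigs against 3. The p-values of the main limma fit take no account of this.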
